A study of Mus musculus with 12 samples.

Results

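Open chromatin sites of mouse proerythroblasts that lay on fetal liver H3K4me1 or H3K4me2, but on neither H3K4me3 nor H3K27ac, numbered 1109 of 16271. They made up 6.82% of the sites found in both ATAC-seq libraries. A region of a mark, or an open site, was counted as consensus where the merged peaks of a group held a peak of every library of that group. A member site shared at least 1 bp with a consensus H3K4me1 or H3K4me2 region and no base with a consensus H3K4me3 or H3K27ac region. The sites were thus chosen by the peak positions measured in all 11 libraries, so their mark content is given as a description, with no test.

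All samples came from C57BL/6 embryos at embryonic day 14.5, with no genotype or treatment differing between them. Proerythroblasts, the early precursors of red cells, gave 2 ATAC-seq libraries, an assay in which a transposase cuts accessible DNA. ChIP-seq of the whole fetal liver covered H3K4me1 (3 libraries), H3K4me2 (2), H3K4me3 (2) and H3K27ac (2). The labels do not say how many embryos entered a library, so the spread between libraries may be technical.

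Methylation of lysine 4 on histone H3 is laid down in steps. Trimethylation (H3K4me3) marks active promoters, monomethylation (H3K4me1) marks enhancers and the flanks of promoters, and dimethylation (H3K4me2) is found at both. Acetylation of lysine 27 (H3K27ac) is added by p300 and CBP at active enhancers and promoters. Enhancers with H3K4me1 but no H3K27ac are commonly called primed, a state described in progenitors ahead of activation and in cells after it has ended. The fetal liver makes most red cells at this age, beside hepatocytes and blood cells of other kinds. The ATAC peaks come from a single stage and the marks from the mixed organ, so a mark carried by few cells and a mark that is weak in every cell cannot be told apart. For H3K4me2 the labels name antibodies of different suppliers in different fields, and every H3K4me2 value rests on whichever was used.

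The peak lists held 18441 and 28980 ATAC peaks in replicates 1 and 2, 42323 to 52387 H3K4me1 peaks, 41765 and 42334 H3K4me2 peaks, 14031 and 16887 H3K4me3 peaks, and 23735 and 28387 H3K27ac peaks. They hold no read counts, so depth is unknown. The number of member sites differed with the ATAC lists used. With ATAC replicate 2 alone the mark rule found 4585 sites and with replicate 1 alone 1563, where a peak in both libraries is no longer asked for. With equal numbers of peaks from both ATAC lists it found 757. With peaks of −log10 q of at least 5 in every list it found 1688, which overlapped 533 (48.1%) of the 1109. Gene names could not be attached to the sites, because no annotation of the files' genome build, mm9, was used here. The sites are therefore given by mm9 position, and the cell type label of the ATAC libraries was not checked against marker genes.

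H3K4me2 was the mark that most member sites had. Consensus H3K4me1 and H3K4me2 were both present at 660 sites (59.5%, 95% exact interval 56.6 to 62.4), H3K4me2 without H3K4me1 at 386 (34.8%, 32.0 to 37.7), and H3K4me1 without H3K4me2 at 63 (5.68%, 4.39 to 7.21). Over all open sites the same shares were 85.0% with both marks, 10.6% with H3K4me2 without H3K4me1 and 0.486% with H3K4me1 without H3K4me2. Like all intervals on shares of sites here, these are of the Clopper-Pearson kind, which reflects counting error alone. When each library was left out in turn, the share with both marks ran from 52.9%, without ATAC replicate 2, to 70.3%, without H3K4me1 replicate 2. Consensus H3K4me1 asked for a peak in more libraries than consensus H3K4me2. Under the threshold of 5 on −log10 q, 23.6% of the sites had both marks. That threshold kept 27.1%, 13.9% and 24.5% of the peaks in H3K4me1 replicates 1, 2 and 3, and 60.2% and 50.5% of those in H3K4me2 replicates 1 and 2.

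H3K4me2 replicates 1 and 2 had a peak at 94.4% and 93.8% of the member sites, against 96.0% and 95.7% of all open sites. H3K4me1 replicates 1, 2 and 3 had a peak at 87.2%, 59.6% and 74.5% of the member sites, against 90.3%, 69.5% and 84.9% of all open sites. The wider spread between H3K4me1 libraries was thus seen over all open sites too. At the members the means were 73.8% ± 13.8 (SD, n = 3) for H3K4me1 and 94.1% ± 0.446 (SD, n = 2) for H3K4me2. All 5 libraries of these marks had a peak at 598 member sites (53.9%, 50.9 to 56.9), and this held for 67.8% of all open sites.

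The absence of H3K4me1 from 386 sites was often an absence from some libraries and not from all. At these sites H3K4me1 replicate 1 had a peak at 64.8%, replicate 3 at 35.2% and replicate 2 at 4.66%. A peak of 2 of the libraries lay at 143 of them, of 1 library at 118, and of none at 125 (32.4%, 27.7 to 37.3). The longest H3K4me1 list, that of replicate 1 with 52387 peaks, had the most and the shortest, that of replicate 2 with 42323, had the fewest. At the 63 sites with H3K4me1 alone, H3K4me1 replicates 1, 2 and 3 had a peak at 95.2%, 55.6% and 76.2%. A peak of just 1 of the 5 H3K4me1 and H3K4me2 libraries lay at 14 of them (22.2%), against 0.719% of all open sites. Of the 63 sites, 52 (82.5%, 70.9 to 90.9) had no H3K4me2 peak in either library. This share rests on 2 libraries and that of the 386 sites on 3, so they are not like measures.

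**Figure D1:**
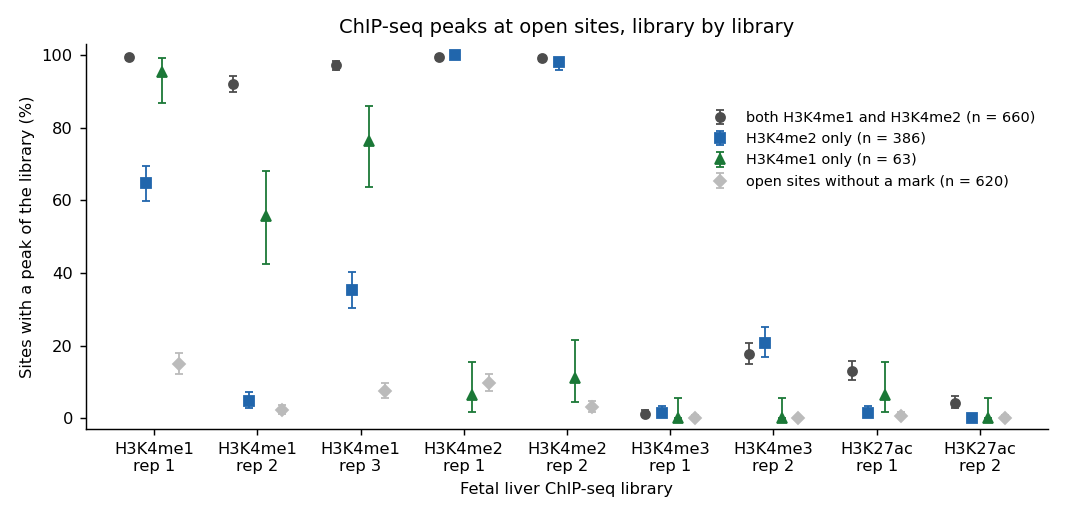
Share of open sites (vertical axis, %) with a peak in each fetal liver ChIP-seq library (horizontal axis), for member sites with both H3K4me1 and H3K4me2, H3K4me2 only or H3K4me1 only, and for open sites without a consensus mark; bars are exact 95% intervals. H3K4me1 replicate 1 reached 64.8% of the sites with H3K4me2 only and replicate 2 reached 4.66%, while H3K4me3 peaks at member sites were nearly all those of replicate 2.

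Most member sites lacked H3K4me3 and H3K27ac in every library, and the rest had a peak of at least 1 library outside the consensus regions, including 17 sites (1.53%) with a peak of each mark. No H3K4me3 or H3K27ac peak of any library lay at 792 sites (71.4%, 68.7 to 74.1), and this held for 8.64% of all open sites. The rule itself asks for the lack of these marks in consensus form, so the contrast with all open sites carries no information about the members. Of these 792 sites, 37.2% had H3K4me2 without consensus H3K4me1, and 386 of the 1109 (34.8%, 32.0 to 37.7) lacked the active marks in every library and had a peak in all 5 H3K4me1 and H3K4me2 libraries. The rule leaves almost no room for other open sites to meet these terms, and the same sites made up 2.37% of all open sites. They are not the 386 sites with H3K4me2 only, none of which had a peak in all 5 libraries. The word primed therefore describes the consensus rule and not a state measured in every library.

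An H3K27ac peak outside the consensus regions touched 123 member sites (11.1%, 9.30 to 13.1), and such a peak touched 3.29% of all open sites. Open sites on consensus H3K27ac cannot count here but are part of all open sites, so these shares are not comparable. H3K27ac replicate 1 had a peak at 96 members (8.66%) and replicate 2 at 28 (2.52%). In replicate 1 these peaks had a median fold enrichment of 2.49, from 1.76 to 3.18, and in replicate 2 of 2.40, from 1.97 to 3.29. Open sites on consensus H3K27ac had medians of 3.86 and 3.29 in the same libraries, so the peaks at member sites were weak ones, at the 13.8th and 14.4th percentile of their lists (medians). Of the 123 sites, 113 had both H3K4me1 and H3K4me2, 6 had H3K4me2 only and 4 had H3K4me1 only. When a mark had to cover the ATAC summit, or when mark regions were cut to the bases covered in every library, the share with an H3K27ac peak was 16.8% in each case. Both rules admit sites that touch a consensus H3K27ac region elsewhere, so this share and the 11.1% are not like measures.

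An H3K4me3 peak outside the consensus regions touched 211 member sites (19.03%, 16.8 to 21.5), and such a peak touched 6.42% of all open sites. Open sites on consensus H3K4me3 cannot count here but are part of all open sites, so these shares are not comparable. At open sites with consensus H3K27ac and no consensus H3K4me3, such a peak was more frequent than at members, with 833 of 2236 (37.3%, 35.2 to 39.3). Of the 211 member sites, 197 had the peak in H3K4me3 replicate 2 and 14 in replicate 1, and none in both. Replicate 2 is the longer list, with 16887 peaks, and its part in the difference was not tested. The median fold enrichment of these peaks was 3.17 in replicate 1 and 3.15 in replicate 2, against 8.94 and 10.5 at open sites on consensus H3K4me3. None of the 63 sites with H3K4me1 only had an H3K4me3 peak in either library, which allows a share of up to 5.69% (upper bound of the exact interval), while 22.3% of the sites with H3K4me2 only and 18.9% of those with both marks had one.

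Member sites with such an H3K4me3 peak also had more H3K4me2. Their median H3K4me2 fold enrichment was 5.06 in replicate 1 and 3.98 in replicate 2, against 3.64 and 3.11 at the 792 sites without any H3K4me3 or H3K27ac peak. For H3K4me1 the order was the opposite, with medians of 2.67, 2.35 and 2.35 in replicates 1, 2 and 3 at the sites with an H3K4me3 peak, against 2.79, 2.51 and 2.51 at the 792. Sites with an H3K27ac peak had the highest H3K4me1 of these groups, at 3.14, 2.67 and 2.76. The orders between these groups held in every library of the mark, and no test was made, as sites of a single genome are not replicates.

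Where they were called, H3K4me1 and H3K4me2 were weaker at member sites than at open sites with H3K27ac and no H3K4me3, of which there were 2236. The median H3K4me1 fold enrichment at member sites was 2.80, 2.51 and 2.52 in replicates 1, 2 and 3, against 3.99, 3.16 and 3.40 at the acetylated sites. The difference averaged −0.908 ± 0.275 (SD, n = 3) and was negative in 3 of 3 libraries. No test was made, since peaks of these marks chose the sites. Restricted to sites with consensus H3K4me1 the difference was −0.823 ± 0.204 (SD, n = 3), and with peaks of −log10 q of at least 5 it was −0.389. For H3K4me2 the medians were 3.90 and 3.29 at member sites, against 5.15 and 4.69 at acetylated sites, a difference of −1.32 ± 0.105 (SD, n = 2), negative in both libraries. The peaks were also narrower. H3K4me1 peaks at member sites had median widths of 1782, 1459 and 1522 bp, against 6335, 4698 and 5377 bp at acetylated sites. H3K4me2 peaks had 1061 and 1060.5 bp, against 2469 and 3267.5 bp.

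Member sites were narrow and modestly enriched in ATAC-seq. Their median width was 398 bp (quartiles 322 and 491 bp, range 202 to 966 bp), against 477 bp at acetylated sites and 326.5 bp at the 620 open sites without any of the marks. The median ATAC fold enrichment of member sites was 4.93 in replicate 1 and 6.30 in replicate 2. Acetylated sites had 5.54 and 7.59, and the difference between members and acetylated sites was −0.952 ± 0.479 (SD, n = 2), negative in both libraries (exact permutation p = 0.5, the smallest possible). Unmarked sites had 4.96 and 5.72. The difference between members and unmarked sites was −0.03 in replicate 1 and 0.58 in replicate 2, with a mean of 0.275 ± 0.431 (SD, n = 2, exact permutation p = 1). It was smaller than the spread between the libraries and differed in sign between them, and with 2 libraries the smallest possible p is 0.5, so the test could not show a difference of any size.

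Within the ATAC lists the member sites stood at a median percentile of 29.3 in replicate 1 and 54.3 in replicate 2, ranks within lists of different length. The sites with both marks, with H3K4me2 only and with H3K4me1 only had medians of 4.80, 5.01 and 4.86 in replicate 1 and 6.45, 6.14 and 6.02 in replicate 2. The order of the splits thus differed between the libraries. Across the 1109 sites, fold enrichment in replicates 1 and 2 had a Spearman correlation of 0.496. Mean ATAC fold enrichment had correlations of −0.0592 to −0.0018 with H3K4me1 fold enrichment over 661 to 967 sites, and of 0.0603 and 0.0686 with H3K4me2 over 1040 and 1047. These are descriptions across sites that share libraries, and such weak values are no finding. The H3K4me2 pair itself correlated at 0.866 over 1030 member sites and H3K4me1 replicates 1 and 3 at 0.788 over 811.

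The summits of the ATAC libraries, the positions of highest signal within a peak, lay at a median of 29 bp from each other at member sites. They were within 50 bp at 743 of the 1109 (67.0%, 64.1 to 69.8), and within that distance at 75.6% of all open sites. Acetylated sites had 76.3% and unmarked sites 72.3%. The share was therefore lower at member sites than over all open sites, with no test over libraries possible, since each site gives 1 distance from both libraries.

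**Figure D2:**
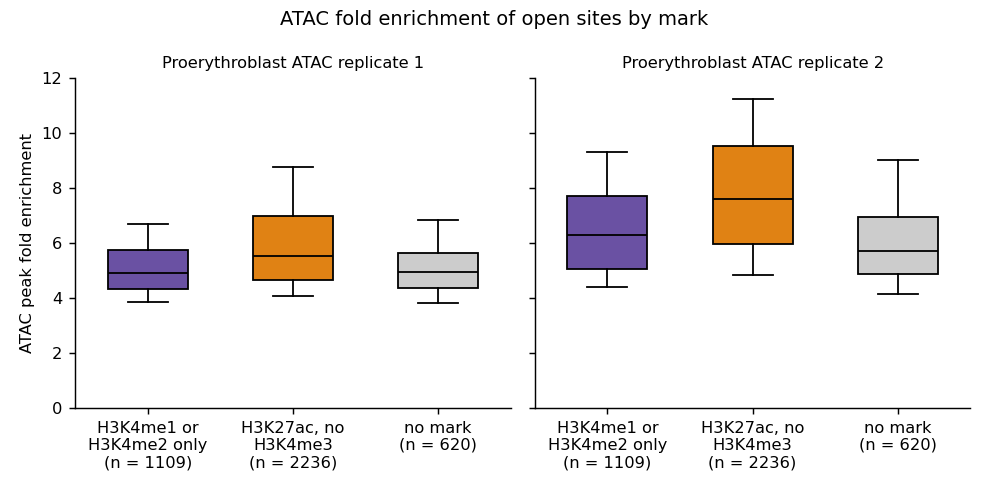
Fold enrichment of ATAC peaks (vertical axis) at sites with H3K4me1 or H3K4me2 only, at sites with H3K27ac and no H3K4me3, and at sites with no mark, in each ATAC library; boxes span the quartiles with the median as a line, and whiskers run from the 10th to the 90th percentile. Member sites had medians of 4.93 and 6.30, below the 5.54 and 7.59 of acetylated sites in both libraries, and the 4.96 and 5.72 of unmarked sites fell on either side of them.

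Cover by H3K4me2 and H3K4me1 was highest at the summits of member sites and fell off within about 1 kb. The rule asks for H3K4me1 or H3K4me2 at each member site, so the high cover at the summit is a description. Averaged over libraries, an H3K4me2 peak lay over the ATAC summit at 86.2% ± 2.17 of member sites (SD, n = 2), with cover of 47.6% ± 0.51 at a distance of 0.5 kb, 16.1% ± 2.04 at 1 kb and 8.32% ± 0.414 at 2 kb. For H3K4me1 the cover was 66.1% ± 13.8 at the summit (SD, n = 3), 49.4% ± 11.6 at 0.5 kb, 27.4% ± 7.10 at 1 kb and 13.7% ± 3.90 at 2 kb. At acetylated sites the same marks reached farther. At 2 kb H3K4me1 still covered 58.9% ± 6.49 and H3K4me2 30.5% ± 8.48 of positions around acetylated sites, so at that distance every H3K4me1 library was lower around members (10.2% to 17.9%) than around acetylated sites (52.5% to 65.5%). With peaks of −log10 q of at least 5, the loss of H3K4me1 cover between the summit and 2 kb at member sites was 21.8 percentage points, against 52.4 points in the full lists.

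The profile differed between the kinds of member site. Around the 660 sites with both marks, the cover by H3K4me1 was 89.1% ± 7.34 at the summit, 86.1% ± 7.06 at 0.25 kb and 40.7% ± 8.81 at 1 kb (n = 3). H3K4me2 was tighter there, at 93.9% ± 1.71 over the summit and 21.5% ± 3.48 at 1 kb (n = 2). Around the 386 sites with H3K4me2 only, the mark was more compact still, at 86.0% ± 3.66 over the summit, 34.97% ± 5.13 at 0.5 kb and 7.12% ± 0.55 at 1 kb. Mean H3K4me1 cover was highest at the summit in both kinds of site. The 63 sites with H3K4me1 only differed in what surrounded them, as H3K4me2 covered 6.35% ± 2.24 of their summits and 18.7% ± 0.561 of positions 2 kb away, and H3K27ac 3.17% ± 4.49 of summits and 9.13% ± 1.68 at 2 kb (n = 2).

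H3K27ac was rare around the member sites as a whole. Cover by its peaks was 3.34% ± 2.68 at the summit, 2.59% ± 1.50 at 1 kb and 3.40% ± 0.159 at 5 kb (n = 2). H3K4me3 covered 5.50% ± 6.89 of summits, with 0.631% in replicate 1 and 10.4% in replicate 2, and 2.16% ± 0.383 of positions at 5 kb. The rule sets the lack of both marks at the site and also removes regions that reach from the site into its surroundings, so this low cover is a description. Around unmarked sites H3K27ac covered 1.98% of positions at 5 kb.

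**Figure D3:**
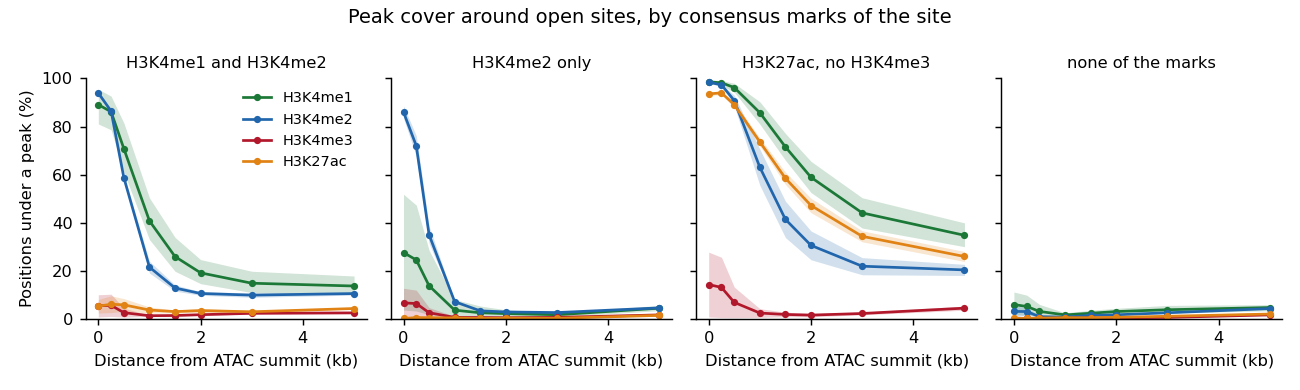
Share of positions under a peak (vertical axis, %) by distance from the ATAC summit (horizontal axis, kb), averaged over both sides, for each histone mark; lines are means over libraries and bands run from the lowest to the highest library. Around sites with H3K4me2 only, H3K4me2 dropped to 7.12% at 1 kb, whereas around acetylated sites it still covered 63.0% at that distance.

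Most member sites lay more than 10 kb from a consensus H3K4me3 or H3K27ac region. Such regions are called active regions or active chromatin here by their marks alone, as activity was not measured. The rule bars any overlap with them, so some distance is built in. The median distance to the nearest consensus H3K4me3 or H3K27ac region was 17.3 kb (quartiles 6.96 and 44.0 kb). Within 1 kb lay 73 sites (6.58%) and within 10 kb 381 (34.4%), while 119 (10.7%) lay beyond 100 kb. Over all open sites, which include those on such regions, the same shares were 89.9%, 92.8% and 1.37%, so these are not like measures. Unmarked open sites had a median of 22.8 kb, with 27.3% within 10 kb and 16.8% beyond 100 kb. The nearest such region was H3K27ac for 521 member sites and H3K4me3 for 587, with 1 tie. With H3K4me2, H3K4me3 and H3K27ac taken only from the libraries whose titles carry the tag 3-18, the median was 11.03 kb.

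The kinds of member site differed in this distance. Sites with H3K4me1 only had a median of 10.2 kb, those with both marks 14.2 kb and those with H3K4me2 only 30.1 kb, a median longer than that of unmarked sites. Of the sites with H3K4me2 only, 70 (18.1%) lay beyond 100 kb, against 47 (7.12%) of those with both marks and 2 (3.17%) of those with H3K4me1 only. Read the other way, the share with both marks was 76.7% among the 73 sites within 1 kb, 69.2% from 1 to 10 kb, 56.5% from 10 to 100 kb and 39.5% beyond. The share with H3K4me2 only was 10.96%, 23.7%, 38.6% and 58.8% in the same bins. H3K27ac peaks outside the consensus regions did not follow distance in this way, at 5.48%, 12.7%, 11.2% and 10.1% from the nearest to the farthest bin. No test was made of these differences, since positions of the same lists chose the sites.

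**Figure D4:**
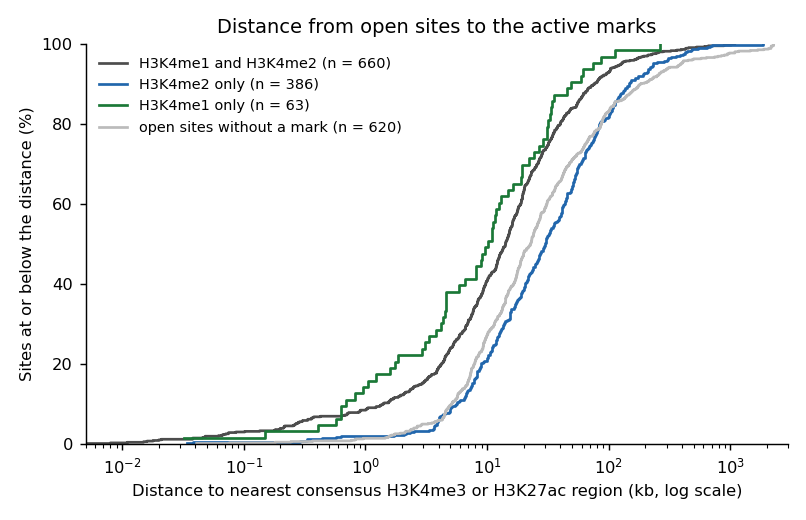
Cumulative share of sites (vertical axis, %) by distance to the nearest consensus H3K4me3 or H3K27ac region (horizontal axis, kb, log scale), for the member sites by mark and for open sites without a mark. The curve of sites with H3K4me2 only, with a median of 30.1 kb, lies to the right of the curves with both marks (14.2 kb) and with H3K4me1 only (10.2 kb).

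Most member sites were the only member of their methylated region, though other open sites may lie in it. Merging overlapping consensus H3K4me1 and H3K4me2 regions placed the 1109 sites in 1089 regions, of which 1072 held a single member, 14 held 2 and 3 held 3. By the same merging, 2227 acetylated sites lay in 1970 regions and 15629 of all open sites in 12662, so having few sites per region is not particular to members. The regions had a median width of 1.78 kb over the members, against 7.02 kb over acetylated sites. Sites with H3K4me2 only sat in regions of 0.899 kb, those with both marks in 2.67 kb and those with H3K4me1 only in 2.73 kb (medians). The region of a member reached a consensus H3K4me3 or H3K27ac region elsewhere along its length in 132 cases (11.9%). This was the case for 16 of the 63 sites with H3K4me1 only (25.4%), 108 of the 660 with both marks (16.4%) and 8 of the 386 with H3K4me2 only (2.07%).

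Sites with H3K4me1 only also sat nearer to the edge of their region. On a scale on which the centre of the region is 0 and its edge is 1, their summits had a median of 0.710, against 0.313 for sites with both marks and 0.358 for sites with H3K4me2 only. Their median distance to a consensus H3K4me2 region was 1.52 kb. The 386 sites with H3K4me2 only were a median of 21.6 kb from any consensus H3K4me1 region, against 18.5 kb for unmarked sites. That distance is to regions with a peak of every library. As given above, 118 and 143 of the 386 had an H3K4me1 peak of 1 and of 2 libraries on the site itself.

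The nearest other open site was a median of 22.4 kb from a member, against 11.5 kb for acetylated sites and 21.3 kb for unmarked sites. It carried both H3K4me3 and H3K27ac for 577 members (52.0%), and this held for 64.8% of all open sites. It was an acetylated site without H3K4me3 for 141 members (12.7%), against 13.7% of all open sites, and another member for 140 (12.6%), against 6.13% of all open sites. Among acetylated sites the nearest was another acetylated site in 33.1%.

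Regions with the methylation of the members were seldom open in proerythroblasts. Of the 19789 merged H3K4me1 or H3K4me2 regions without H3K4me3 or H3K27ac anywhere in them, 962 (4.86%) held a consensus open site. Peaks of ATAC replicates 1 and 2 lay in 6.71% and 18.3% of them, a mean of 12.5% ± 8.21 (SD, n = 2). Of the 5828 such regions with H3K27ac and no H3K4me3, the replicates reached 28.2% and 56.0%. The regions with H3K27ac were wider, with a median of 3.75 kb, against 1.30 kb without the active marks. Among regions of 2 to 4 kb the shares were 7.66% and 24.3% without the active marks, against 21.9% and 52.4% with H3K27ac, so the order held in both libraries at similar width. Below 1 kb the shares were 5.41% and 12.9%, against 5.53% and 22.6% over 199 regions with H3K27ac, nearly equal in replicate 1.

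Among the regions without H3K4me3 or H3K27ac, those with both methylation marks were open most often. A consensus open site lay in 565 of 6764 regions with both marks (8.35%, 7.70 to 9.04), in 371 of 7949 with H3K4me2 only (4.67%, 4.21 to 5.16) and in 26 of 5076 with H3K4me1 only (0.512%, 0.335 to 0.750). ATAC replicate 1 gave 10.2%, 7.49% and 0.887% and replicate 2 gave 31.5%, 14.6% and 6.64%, the same order in both. The regions with both marks were also the widest, with a median of 2.13 kb, against 0.804 kb with H3K4me2 only. Regions with H3K4me1 only, at 1.48 kb, were wider than those with H3K4me2 only and were open less often in both libraries.

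The strongest member site by mean ATAC fold enrichment lay on chromosome 9 from 88494260 to 88494590 (mm9). Its ATAC fold enrichment was 9.34 in replicate 1 and 13.7 in replicate 2, with summits at the same base. It had H3K4me2 only, with a fold enrichment of 5.89 and 4.64, in a region of 0.602 kb that lay 49.3 kb from any H3K4me3 or H3K27ac region. No H3K4me1 or H3K27ac library had a peak there, and H3K4me3 replicate 1 had a peak of 2.88. The next, on chromosome X from 160465799 to 160466207, had ATAC values of 7.48 and 14.9, H3K4me2 of 3.50 and 2.77, and no other mark in any library. The next of the sites with H3K4me2 only, on chromosome 7 from 144669932 to 144670344, had ATAC values of 9.51 and 11.6 beside weak H3K4me2, at 2.80 and 2.06. High ATAC values at these 3 sites thus went with H3K4me2 from 2.06 to 5.89.

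Among sites with both marks the strongest lay on chromosome 7 from 28146350 to 28146875. Its ATAC fold enrichment was 10.3 and 11.3, its H3K4me1 3.15, 2.28 and 2.53 in replicates 1, 2 and 3, and its H3K4me2 5.81 and 4.44. It lay 3.66 kb from an active region, and H3K4me3 replicate 2 had a peak of 2.83 on it. The second, on chromosome 15 from 101076633 to 101077139, had ATAC values of 8.52 and 12.9 and lay 20.1 kb away. The third, on chromosome 14 from 55324571 to 55325131, had 9.29 and 12.0 in ATAC and lay 4.50 kb away. Neither of these had an H3K4me3 or H3K27ac peak in any library, and all 3 had a peak in each of the 5 H3K4me1 and H3K4me2 libraries. Together with the first pair on chromosomes 9 and X they are the 5 strongest members.

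Among sites with H3K4me1 only the strongest lay on chromosome 6 from 72357159 to 72357590. It had ATAC values of 7.58 and 11.6 and H3K4me1 of 2.38, 2.61 and 2.83, at 5.92 kb from an active region. The next 2 of these sites, on chromosome 11 from 101519688 to 101520412 and from 58030272 to 58030752, lay only 0.148 and 0.624 kb from an active region. Their H3K4me1 peaks came from 1 and 2 of the 3 libraries, in regions of 5.98 and 6.83 kb.

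**Figure D5:**
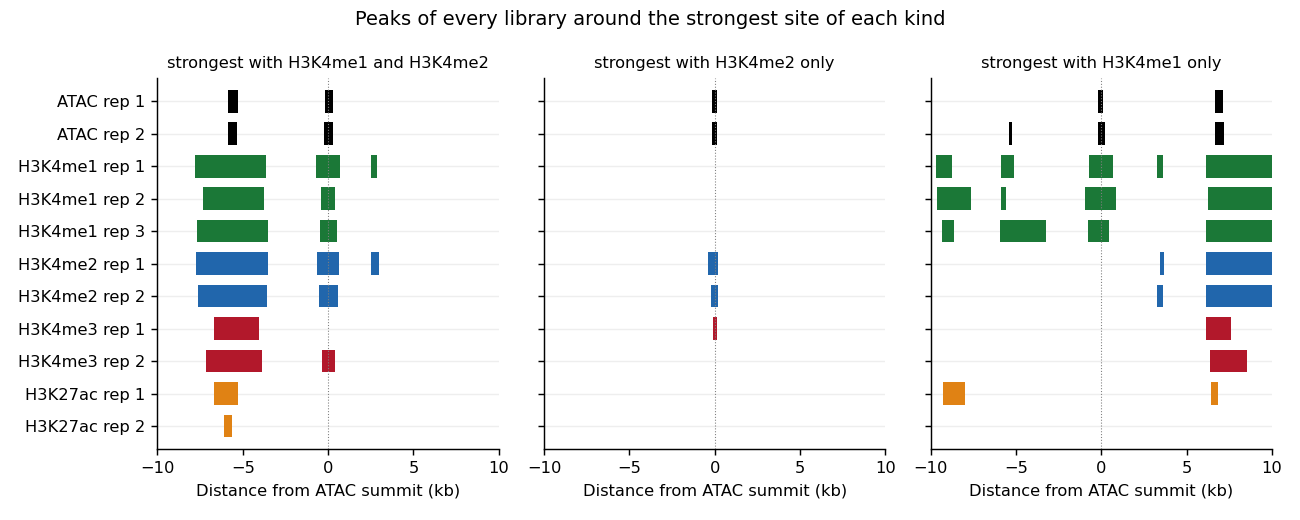
Peaks of every library (rows) within 10 kb of the ATAC summit (horizontal axis, kb) at the strongest member site with both marks, with H3K4me2 only and with H3K4me1 only; boxes are drawn to scale and cut at the panel edge. At the site with H3K4me2 only, no other peak of any library lies within the window apart from a narrow H3K4me3 peak of replicate 1, whereas each of the other panels shows a neighbouring open site with H3K4me3.

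The widest members were not the strongest. Sites of 966 bp lay on chromosome 5 from 151135528 to 151136493, with ATAC values of 3.95 and 5.21, and on chromosome 10 from 79242712 to 79243677, with 7.05 and 6.35. The next, of 952 bp on chromosome 15 from 25538485 to 25539436, had 5.02 and 8.30 and H3K4me2 of 7.54 and 5.32, and both H3K4me3 replicate 2 (4.70) and H3K27ac replicate 1 (2.33) had a peak on it. The fourth, on chromosome 7 from 38974176 to 38975081, had consensus H3K4me2 only and ATAC values of 4.30 and 4.65. H3K4me1 replicates 1 (2.26) and 2 (2.02) also had a peak on it. The fifth, on chromosome 5 from 113593552 to 113594452, had 6.28 and 8.58 and no other open site within 591 kb.

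Clusters of members were small. Chromosome 2 from 152591761 to 152599566 was a region of 7.81 kb with 3 members and no other open site, and it met neither H3K27ac nor H3K4me3. Its members had ATAC values from 4.42 to 6.70 in replicate 1 and from 4.83 to 7.59 in replicate 2, and shared the same H3K4me1 and H3K4me2 peaks. A region on chromosome 9 from 120510506 to 120512140 of 1.64 kb was met by 3 members with consensus H3K4me2 only. The one from 120511031 to 120511565 also had a peak of H3K4me1 replicate 1 (2.15). The third, on chromosome 7 from 16529128 to 16541491, held 3 members among 4 open sites and did meet both H3K27ac and H3K4me3. Members of a region share its peaks and are not independent.

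The farthest members from active chromatin lay on chromosome 4 from 91043062 to 91043413, at 1851 kb, on chromosome 12 from 120664226 to 120664553, at 1087 kb, and on chromosome 2 from 46226500 to 46226910, at 1018 kb. Their mean ATAC fold enrichment was 4.99 ± 0.356, 5.28 ± 0.203 and 6.97 ± 0.868 (SD, n = 2), within the 10th to 90th percentile of the members in both libraries except for the last in replicate 1 (7.58, against a 90th percentile of 6.71). The last 2 had a peak in all 5 H3K4me1 and H3K4me2 libraries and the first in 4.

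At the border set by the rule, the nearest members missed an active region by 5 bp on chromosome 17 from 36133957 to 36134282, by 8 bp on chromosome 7 from 97111645 to 97112084 and by 11 bp on chromosome 13 from 63165141 to 63165550. Their ATAC values were 5.39 and 4.87, 3.79 and 5.56, and 4.72 and 8.19 in replicates 1 and 2. The sites left out by the smallest overlap met an H3K27ac region over 5 bp on chromosome 6 from 124633696 to 124634098, 6 bp on chromosome 11 from 31069820 to 31070371 and 7 bp on chromosome 8 from 72796816 to 72797167. Their ATAC values were 3.54 and 4.21, 6.42 and 10.6, and 7.00 and 7.62. Values on both sides of the border overlapped.

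Member sites were spread over all autosomes and chromosome X. Their share of the open sites of a chromosome was lowest on chromosome 19, with 20 of 570 (3.51%), and chromosome X, with 18 of 433 (4.16%), and highest on chromosome 12, with 50 of 601 (8.32%). Chromosome 2 held the most, 93 of 1307 (7.12%). None of the 8 open sites on chromosome Y was a member.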

How the data were processed

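The authors deposited 1 peak list per library, with no replicates pooled. Tools named in the submitters' processing notes are MACS2, SAMtools, Bowtie 1.0.1 and Trimmomatic 0.32, with the build mm9. Caller settings and controls: not given in the sources used here. Each deposited peak carries a −log10 p, a −log10 q, a score that follows the −log10 q, and a fold enrichment relative to the background estimated in peak calling. Peak fold enrichments are the authors' and were used to describe and rank peaks within a list.

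The 7 mitochondrial peaks were set aside, which left chromosomes 1 to 19, X and Y. Touching or overlapping peaks were merged, and positions are counted from 1. A site's fold enrichment in a library is that of its strongest overlapping peak. Distances to marked regions and to other open sites were measured from edge to edge. Summits of both libraries were averaged for distances from the summit and for the position within a region. ATAC fold enrichment was compared over libraries with a two-sided exact permutation test (sign flips), and mark fold enrichment, whose peaks chose the sites, without a test. The interval code was tested on simulated peaks with Python 3.11.15, NumPy 2.4.6, pandas 2.3.3 and SciPy 1.17.1.

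Member sites, splits and measures were chosen with earlier results of these data known. Named sites are the 5 strongest members, the 3 strongest of each split, the 5 widest, the 3 regions with most members, the 3 nearest to and farthest from the active marks, and the 3 excluded sites with the least overlap. The gene table supplied is on another build, GRCm38, so neither genes nor sequences were read. The 19 alternatives (closing section) included leaving out each of the 11 libraries. The input library was not analysed here.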

Additional observations from a re-analysis of the deposited data

How the results depend on the processing

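With peaks of −log10 q of at least 5, member sites numbered 1688, of which 23.6% had both H3K4me1 and H3K4me2, the median distance to an active region was 24.6 kb, and H3K4me1 cover lost 21.8 points between the summit and 2 kb. Leaving out each library in turn gave 916 to 4585 member sites, the highest without ATAC replicate 1, and median distances from 13.3 to 19.8 kb, the lowest without H3K27ac replicate 2. Over the same left-out libraries the share with both H3K4me1 and H3K4me2 ran from 52.9% to 70.3%. The share with an H3K27ac peak was 16.3% when a mark had to cover at least 50% of a site’s bases, and 16.8% both when it had to cover the summit and when mark regions were the bases covered in every library. These rules admit sites that touch a consensus H3K27ac region, so these shares are not like that of the main members. The median distance was 13.0 kb under the summit rule and 11.03 kb with libraries tagged 3-18. The difference in ATAC fold enrichment between members and unmarked sites ran from 0 to 0.294 over the left-out libraries, the lowest being without ATAC replicate 2. The share with an H3K27ac peak outside the consensus regions has no value where 1 H3K27ac library is left or where a peak of any library counts. The causes were not tested. The lower ATAC and H3K4me1 fold enrichment of members than of acetylated sites kept its direction in all 19 alternatives for each, and the H3K4me1 difference was smallest, at −0.389, with peaks of −log10 q of at least 5. Requiring no H3K4me3 or H3K27ac peak of any library left 792 members. Between groups of libraries, no paired analysis was possible because the results compare classes of sites within a library. There is thus no fit to hold a block. Classes were paired within a library, as the ATAC permutation test flipped the sign of each library's difference between classes. Some titles share a tag across marks, but the labels do not say what it stands for. The lists hold no read counts, so depth limits every absence of a peak to an unknown degree.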

Other observations

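Peaks seen in a single ATAC library under the same mark rule numbered 428 of the 1428 peaks of replicate 1 alone (30.0%) and 3469 of the 12282 of replicate 2 alone (28.2%). Their median widths were 234 bp in replicate 1 and 268 bp in replicate 2, and their median ATAC fold enrichments 4.27 and 4.82. The consensus members had a median of 398 bp, but they merge peaks of both libraries, so these widths are not like measures. The marks of the peaks seen in a single library differed between the libraries. Of the 428 peaks of replicate 1, 58.2% had H3K4me2 only and 35.3% had both marks. Of the 3469 of replicate 2, 25.0% had H3K4me2 only and 61.0% had both. The median distance to a consensus H3K4me3 or H3K27ac region was 36.4 kb for the peaks of replicate 1 and 13.0 kb for those of replicate 2, on either side of the 17.3 kb of the consensus members.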
